A study of Mus musculus with 12 samples.

Results

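Liver from mice that lacked both p62 and TSC1 in hepatocytes (Tsc1/p62Δhep, 3 samples) was compared with liver from mice that lacked p62 alone (p62Δhep, 3 samples), so that the comparison followed the loss of Tsc1 in a liver already without p62. These were 6 of the 12 samples of the series, chosen by genotype from the sample titles and the names of the deposited columns. The other 6 were floxed mice with no Cre (p62F/F, 3 samples) and mice that lacked TSC1 alone (Tsc1Δhep, 3 samples), and they enter where the effect of Tsc1 loss with and without p62 was compared and where levels are set beside them. The mice carried floxed Sqstm1, the gene of p62, and in Tsc1/p62Δhep also floxed Tsc1, on a C57BL/6 background reached by backcrossing. Only a minimum number of backcross generations is stated, the same for all 12 samples. All 6 samples of the comparison carried Alb-Cre, a recombinase driven by the albumin promoter and therefore active mainly in hepatocytes. Kupffer cells, endothelial cells, stellate cells and leukocytes of these livers keep both genes. Poly(A) RNA of whole frozen liver pieces was sequenced, and in such bulk samples fewer cells of a type and less RNA per cell cannot be told apart. The sources used here do not state age, the diet of a given sample, whether tissue was tumorous or whether every sample had its own animal. The p-values therefore cover only the spread among the deposited libraries, which may be technical.

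TSC1 and TSC2 form a complex that switches off the small GTPase RHEB, and RHEB switches on mTORC1, the kinase complex that drives protein, lipid and nucleotide synthesis and holds back autophagy. Amino acids act on mTORC1 through Rag GTPases on the lysosome, and mTORC1 in turn keeps the transcription factors TFEB and TFE3, which drive lysosomal genes, out of the nucleus. p62 carries ubiquitinated cargo to autophagosomes, gathers mTORC1 signalling proteins, and binds KEAP1, the inhibitor of NRF2, a transcription factor for antioxidant and detoxification genes. Chronic mTORC1 activity after Tsc1 loss in hepatocytes is known to bring liver damage and liver tumours in mice.

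The 6 libraries held 15792048 to 25273631 counts. Genotype and deposited table went together, because p62Δhep and p62F/F came in one table of counts (the p62 table) and Tsc1Δhep and Tsc1/p62Δhep in another (the Tsc1 table), so an effect of Tsc1 loss and a difference between the tables cannot be told apart in the direct comparison. Of 12249 genes tested, 12 had their lowest library in one table at least 10-fold above the highest library of the other. Among these were Sumo2, Ubb, Sec61g and Atp5l, which have near-identical copies elsewhere in the genome, and values of genes with such copies are uncertain. Counts assigned to the ribosomal RNA gene Rn45s made up 1.91% to 3.50% of libraries in the p62 table, 1.21% of Tsc1/p62Δhep 1, and 0.0751% to 0.181% of the other 5 libraries of the Tsc1 table. Within p62Δhep, libraries 2 and 3 carried far more acute phase RNA than library 1. Counts are therefore also given from a fit without libraries 2 and 3, chosen after the data were seen, that is with p62Δhep 1 alone, in which the lone p62Δhep library is assumed to vary like the other group.

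The targeted genes matched the titles. Tsc1 was at 40.96, 33.6 and 26.9 CPM (counts scaled to a common library size) in p62Δhep and at 13.3, 11.6 and 9.16 CPM in Tsc1/p62Δhep (log2 fold change -1.58 ± 0.21 SE, adjusted p = 0.0018). All 3 double-deleted libraries lay below all 3 of p62Δhep, and the counts cover the whole gene and all cells of the liver. Sqstm1 was at 18.1, 12.7 and 20.5 CPM in p62Δhep and 13.99, 16.98 and 19.2 CPM in Tsc1/p62Δhep, whereas p62F/F had 327, 358 and 356 CPM and Tsc1Δhep had 1152, 775 and 975 CPM. The low Sqstm1 level was thus shared by both groups, which overlapped (log2 fold change -0.04 ± 0.21 SE, adjusted p = 0.90). Albumin, the main hepatocyte secreted protein, was at 25832, 31429 and 24459.8 CPM in p62Δhep and 46677, 47251 and 71877 CPM in Tsc1/p62Δhep, and was abundant in all 6 (log2 fold change 1.02 ± 0.32 SE, adjusted p = 0.041). The Alb call was lost in each of the 5 fits that left out p62Δhep 2, p62Δhep 3 or any one Tsc1/p62Δhep library. Myc, an oncogene, was not called (log2 fold change -0.55 ± 0.35 SE, adjusted p = 0.25), but was called lower without Tsc1/p62Δhep 3, at -1.02.

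Of the 12249 genes tested with edgeR's quasi-likelihood test, 4613 (37.7%) passed an adjusted p below 0.05, 2153 (17.6%) higher and 2460 (20.1%) lower in Tsc1/p62Δhep than in p62Δhep. All calls of single genes refer to this test and this threshold. Counts of list members in the direct comparison are to be read beside the shares of all genes, 17.6% higher and 20.1% lower. Past a 2-fold change there were 835 higher (6.82%) and 1475 lower (12.0%), and the groups did not overlap for 6415 genes (52.4%). With libraries scaled by their totals in place of TMM the split moved to 1500 higher and 2724 lower, that is from 46.7% to 35.5% of calls higher. In 1548 of the 4613 called genes (33.6%), against 1873 of all tested (15.3%), the 6 libraries of one table lay all above or all below the 6 of the other. The calls higher dropped to 1413 without p62Δhep 3 and to 1378 without Tsc1/p62Δhep 2, and 255 higher and 512 lower of 12700 genes were called without p62Δhep 2 and 3. Of the 135 genes named here that were called with all 6 libraries, 66 were no longer called in that fit. For genes named as higher or lower the groups did not overlap unless this is stated.

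**Figure D1:**
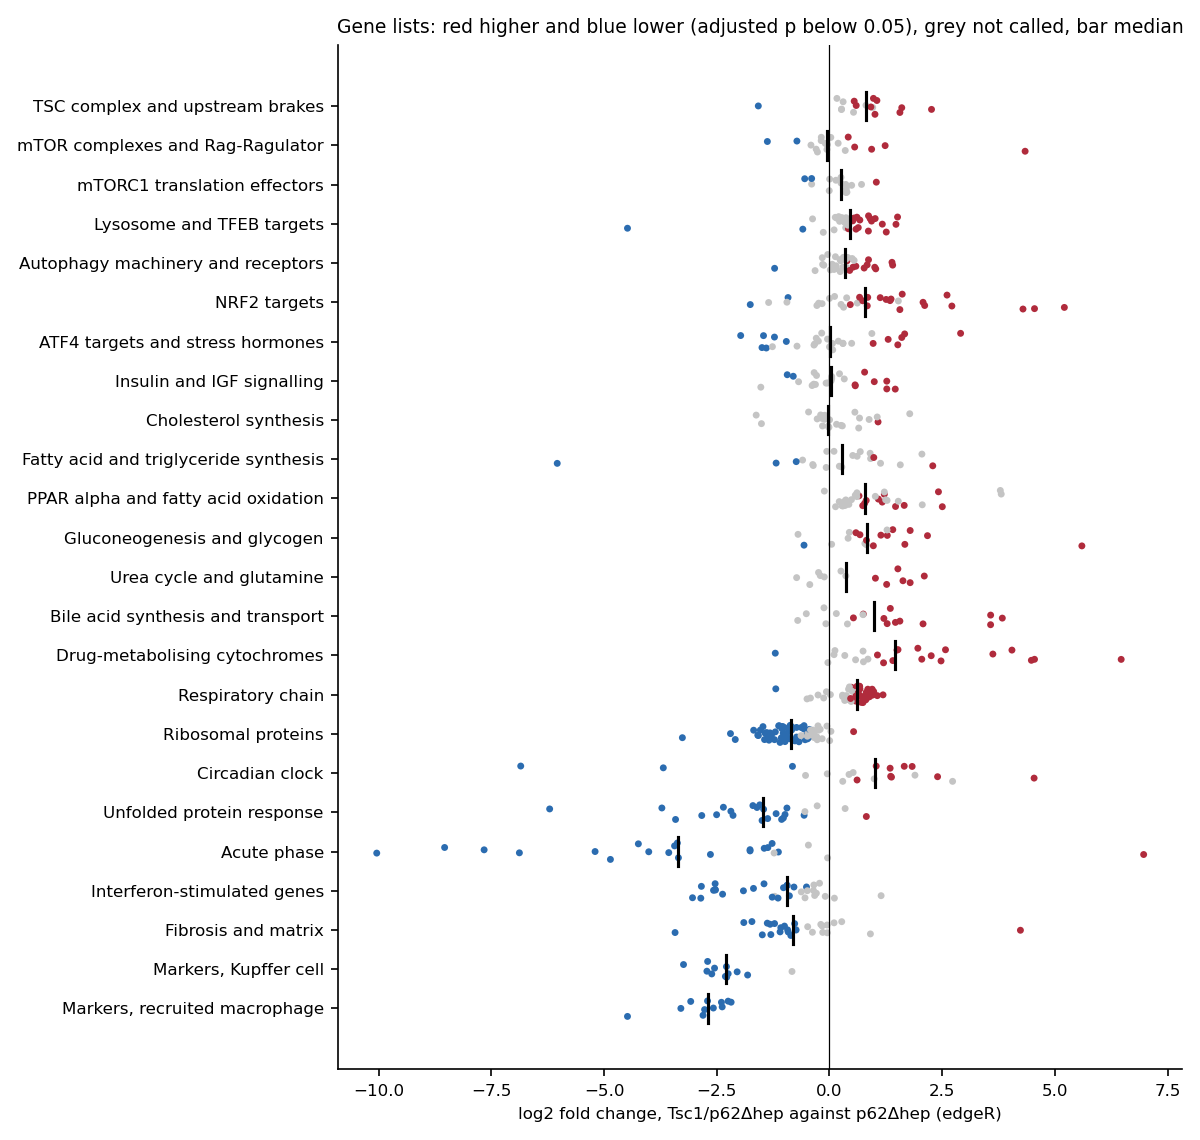
Log2 fold change of Tsc1/p62Δhep against p62Δhep for the members of 24 gene lists. Each point is a gene (red, called higher; blue, called lower; grey, not called) and the bar is the list's median; acute phase, unfolded protein response and macrophage lists lie left of 0, and cytochromes, bile acid and NRF2 lists right of it.

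Genes upstream of mTORC1 were among those that moved. Of 17 tested members of the TSC complex and its upstream regulators, not all of them brakes, 9 were higher and 1, Tsc1 itself, was lower. Their median log2 fold change was 0.81, against -0.01 for all genes. Tsc2, the partner of TSC1, was at 35.9, 35.8 and 39.1 CPM in p62Δhep and 68.4, 74.7 and 75.6 CPM in Tsc1/p62Δhep (log2 fold change 0.97 ± 0.11 SE, adjusted p = 0.0013). Every double-deleted library thus held more Tsc2 RNA than any p62Δhep library. Sesn2, a sestrin that senses leucine and inhibits mTORC1, was at 5.41, 5.62 and 8.89 CPM and 16.5, 13.3 and 31.3 CPM (log2 fold change 1.60 ± 0.35 SE, adjusted p = 0.010), and the p53 target Sesn1, its relative, was also higher (log2 fold change 1.05). Fnip1, a folliculin partner that acts on RagC and RagD, went from 65.03, 53.9 and 47.6 CPM to 121, 115 and 79.3 CPM (log2 fold change 0.92 ± 0.20 SE, adjusted p = 0.011). Fnip2, the other folliculin partner, was called at a log2 fold change of 1.56, and Depdc5 and Nprl3, subunits of the GATOR1 inhibitor of the Rags, at 0.59 and 0.55. These 3 calls were lost without p62Δhep 2 and without Tsc1/p62Δhep 2, and also without other single libraries. Ddit4, the REDD1 gene induced by stress and glucocorticoids, was called although its groups overlapped (14.6, 26.1 and 20.4 CPM against 107, 21.9 and 166 CPM), and its call was lost without any one p62Δhep library and without Tsc1/p62Δhep 1 or 3. The list's higher count was 4 without p62Δhep 2 and 5 without either Tsc1/p62Δhep 1 or 2. With only library 1 of p62Δhep, 1 was called higher and 1 lower, with a median of 0.66.

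The largest change in the pathway was in a Rag GTPase. Rragd, which encodes RagD, was at 2.76, 2.496 and 2.12 CPM in p62Δhep and at 40.1, 57.9 and 51.5 CPM in Tsc1/p62Δhep. In Tsc1Δhep it reached 275, 263 and 262 CPM, and in p62F/F 3.61, 7.93 and 18.1 CPM. The 3 double-deleted libraries thus lay about 20.2-fold above p62Δhep (log2 fold change 4.34 ± 0.20 SE, adjusted p = 6.7e-05), and both groups without Tsc1 stood above both groups with it. Rragc, the gene of RagC, was higher by less (57.4, 46.2 and 44.7 CPM against 90.9, 106 and 87.7 CPM; log2 fold change 0.93 ± 0.15 SE, adjusted p = 0.0037). Deptor, an inhibitory subunit of both mTOR complexes, was at 83.02, 69.02 and 41.4 CPM and 145, 158 and 154 CPM (log2 fold change 1.23 ± 0.24 SE, adjusted p = 0.0070). Mlst8, a core subunit, was lower (log2 fold change -0.72 ± 0.15 SE, adjusted p = 0.0080). In all, 5 of 18 tested members of the mTOR and Rag-Ragulator list were higher and 2 lower, against 17.6% and 20.1% of all genes. The list had 3 higher when all 12 libraries shared 1 model. In the fit with p62Δhep 1 alone, 2 were called higher. Among 15 translation effectors, the targets through which mTORC1 acts on ribosomes, 1 was higher and 2 were lower. The one higher was Eif4ebp3, a translation repressor (28.9, 33.9 and 31.8 CPM against 80.3, 55.3 and 59.2 CPM; log2 fold change 1.04 ± 0.17 SE, adjusted p = 0.0037). The cap-binding factor Eif4e and the helicase Eif4a1 had log2 fold changes of -0.40 and -0.55, and both calls were lost without p62Δhep 2 or 3 and without Tsc1/p62Δhep 1 or 2. Of the translation effectors none was called, with 3 higher at an unadjusted p below 0.05, in the edgeR fit with p62Δhep 1 alone.

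**Figure D2:**
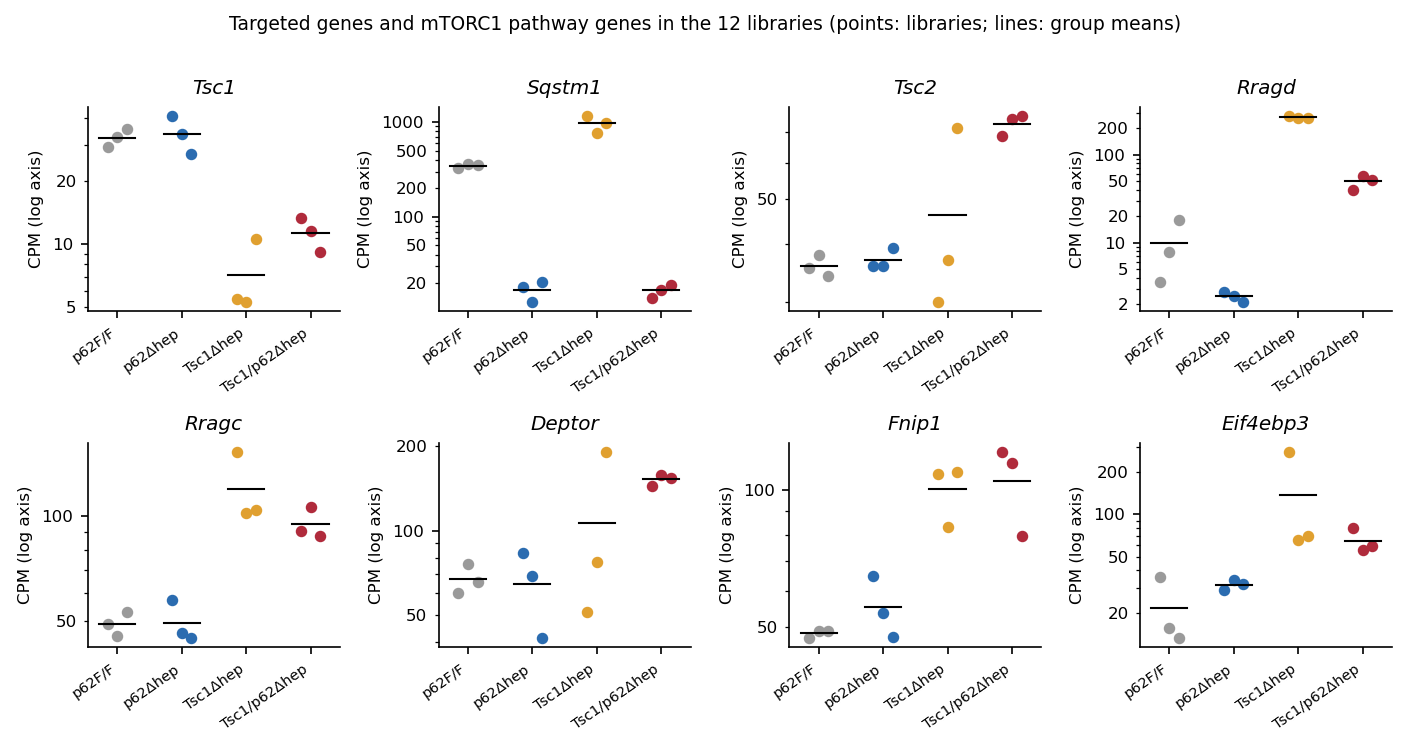
CPM on a log axis of Tsc1, Sqstm1, Tsc2, Rragd, Rragc, Deptor, Fnip1 and Eif4ebp3 in each of the 12 libraries, by group; points are libraries and lines are group means. Rragd stands at 2.12 to 2.76 CPM in p62Δhep and at 40.1 to 57.9 CPM in Tsc1/p62Δhep.

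Lysosomal genes were more often higher than lower. Of 32 tested members of the lysosome and TFEB-target list, 16 were higher and 2 lower, with a median of 0.45; 14 of these 18 called members also split by table. Ctsf, a cysteine protease, was at 13.8, 8.67 and 14.2 CPM in p62Δhep and 29.97, 36.5 and 36.4 CPM in Tsc1/p62Δhep (log2 fold change 1.47 ± 0.21 SE, adjusted p = 0.0022). Mcoln1, the calcium channel of the lysosomal membrane, was at 27.2, 24.8 and 27.3 CPM and 46.02, 49.8 and 64.97 CPM (log2 fold change 1.01 ± 0.15 SE, adjusted p = 0.0030). In both of these each double-deleted library exceeded each p62Δhep library. The membrane protein Lamp1 (log2 fold change 0.90), the proteases Ctsa (0.86) and Tpp1 (0.93), the sialidase Neu1 (0.87), Hexa (1.17) and the proton pump subunit Atp6v1a (0.67) were higher too. The members called lower were Mitf, a transcription factor of the TFEB family (-0.59), and Gpnmb, a macrophage-rich gene whose groups overlapped. Mitf lost its call when any single library except p62Δhep 1 was left out, and Gpnmb without p62Δhep 1 or 3 or Tsc1/p62Δhep 1 or 2. Tfeb and Tfe3 themselves were not called (log2 fold changes 0.48 and -0.38, adjusted p = 0.14 and 0.096). Without p62Δhep 2 and 3, 4 members were called higher and 1 lower, with a median of 0.48.

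The promoters of these genes are shown because TFEB and its relatives bind E-box-like sites. The letters searched were CACGTG, the same on both strands, and its longer form TCACGTGA, in the 250 bases before each RefSeq start (GRCm38.p6). CACGTG was present in 6.02% of all 32851 promoters. Of the 32 list members, 24 had a promoter in the RefSeq table and 12 of these held it in at least one annotated start, including 7 of the 11 matched members called higher and neither of the 2 called lower. TCACGTGA was in 0.785% of all promoters, in 6 of the 24 and in 4 of the 11. Members were counted per gene and all promoters per start. The list holds known TFEB targets, so a share above that of all promoters does not bear on the higher levels. Capitals mark CACGTG in the 100 bases shown, each written on its gene's strand.
Lamp1, chr8:13159061-13159160, plus strand: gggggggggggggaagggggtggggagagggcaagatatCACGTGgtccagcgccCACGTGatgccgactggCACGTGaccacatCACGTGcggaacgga
Mcoln1, chr8:3500419-3500518, plus strand: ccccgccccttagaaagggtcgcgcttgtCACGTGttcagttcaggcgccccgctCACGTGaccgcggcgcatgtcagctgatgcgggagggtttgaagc
Ctsa, chr2:164833673-164833772, plus strand: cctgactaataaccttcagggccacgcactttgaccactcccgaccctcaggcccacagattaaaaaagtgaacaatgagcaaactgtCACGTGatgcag
Ctsf, chr19:4855065-4855164, plus strand: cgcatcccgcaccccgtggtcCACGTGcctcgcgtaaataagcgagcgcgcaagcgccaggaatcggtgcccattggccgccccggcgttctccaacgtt
Rragd, chr4:32982898-32982997, plus strand: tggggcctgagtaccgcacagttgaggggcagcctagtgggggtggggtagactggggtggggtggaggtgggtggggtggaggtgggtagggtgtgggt
Lamp1 held 4 matches and Mcoln1 2, while Ctsa and Ctsf held 1 each. A different annotated Ctsa start had none in its last 100 bases. Rragd, the gene with the largest change in the pathway, had no match in the window shown, which says only that these letters are not in it. A match describes a sequence and was not tested for binding.

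Autophagy genes moved less. Of 34 tested members, 11 were higher and 1 lower, with a median of 0.34, but the higher count was 4 without p62Δhep 3 or without Tsc1/p62Δhep 2, 5 without Tsc1/p62Δhep 1, 6 without p62Δhep 2 and 7 with library totals. Against p62Δhep 1 alone, 1 was called higher and 1 lower, with a median of 0.17. Atg7, the enzyme that activates ATG8 proteins, was at 31.6, 23.5 and 26.7 CPM in p62Δhep and 71.5, 82.1 and 63.2 CPM in Tsc1/p62Δhep (log2 fold change 1.40 ± 0.17 SE, adjusted p = 0.0013). Pik3c3, the lipid kinase that starts autophagosomes, was at 17.3, 13.7 and 12.2 CPM and 31.96, 32.04 and 24.2 CPM (log2 fold change 1.03 ± 0.19 SE, adjusted p = 0.0054). Both genes were thus higher in all 3 double-deleted libraries. Gabarapl2, an ATG8 family member, was lower (41.5, 30.6 and 35.7 CPM against 15.6, 12.7 and 18.3 CPM; log2 fold change -1.22 ± 0.18 SE, adjusted p = 0.0027).

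NRF2 targets were mostly higher although p62 was missing from both groups. Of 32 tested members, 18 were higher and 2 lower, with a median log2 fold change of 0.79; 8 of the 20 called also split by table. Gsta2, a glutathione transferase, was at 3.12, 0.749 and 1.02 CPM in p62Δhep and 74.3, 40.9 and 68.1 CPM in Tsc1/p62Δhep (log2 fold change 5.21 ± 0.51 SE, adjusted p = 0.00092). Cyp2a5, a cytochrome that answers to NRF2 and to other regulators, was at 132, 34.7 and 36.3 CPM and 1689.8, 1599 and 1495 CPM (log2 fold change 4.55 ± 0.58 SE, adjusted p = 0.0016). Ephx1, an epoxide hydrolase, was at 191, 92.2 and 129 CPM and 549, 759 and 1228 CPM (log2 fold change 2.61 ± 0.38 SE, adjusted p = 0.0025). For these the groups lay far apart, and Gsta2 has near-identical relatives with which it may share reads. Nqo1, the quinone reductase most often used to read NRF2 activity, was at 5.04, 4.18 and 3.51 CPM and 8.85, 8.84 and 12.9 CPM (log2 fold change 1.26 ± 0.24 SE, adjusted p = 0.0060). The glutathione transferases Gsta4 (2.71) and Gstm1 (2.11), the glutathione synthesis subunit Gclm (0.74), the UDP-glucose dehydrogenase Ugdh (1.37), the aldehyde oxidase Aox1 (1.34) and the efflux pumps Abcc3 (2.08) and Abcc4 (1.56) were higher as well. Hmox1, heme oxygenase and also a macrophage gene, went the other way (43.9, 65.2 and 83.8 CPM against 17.01, 24.8 and 15.3 CPM; log2 fold change -1.76 ± 0.27 SE, adjusted p = 0.0032), as did Gstp1 (-0.92). Neither Nfe2l2, the gene of NRF2, nor Keap1 was called (adjusted p = 0.19 and 0.37). With p62Δhep 2 and 3 left out, 6 members were called higher and 1 lower, with a median of 0.64. The core of the antioxidant response element, TGACNNNGC, was searched on both strands. It was in 6 of 27 matched members and 3 of 16 matched members called higher, against 10.2% of all promoters in the same window. Members were counted per gene and all promoters per start, and the list holds known NRF2 targets, so these shares do not bear on the change.

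**Figure D3:**
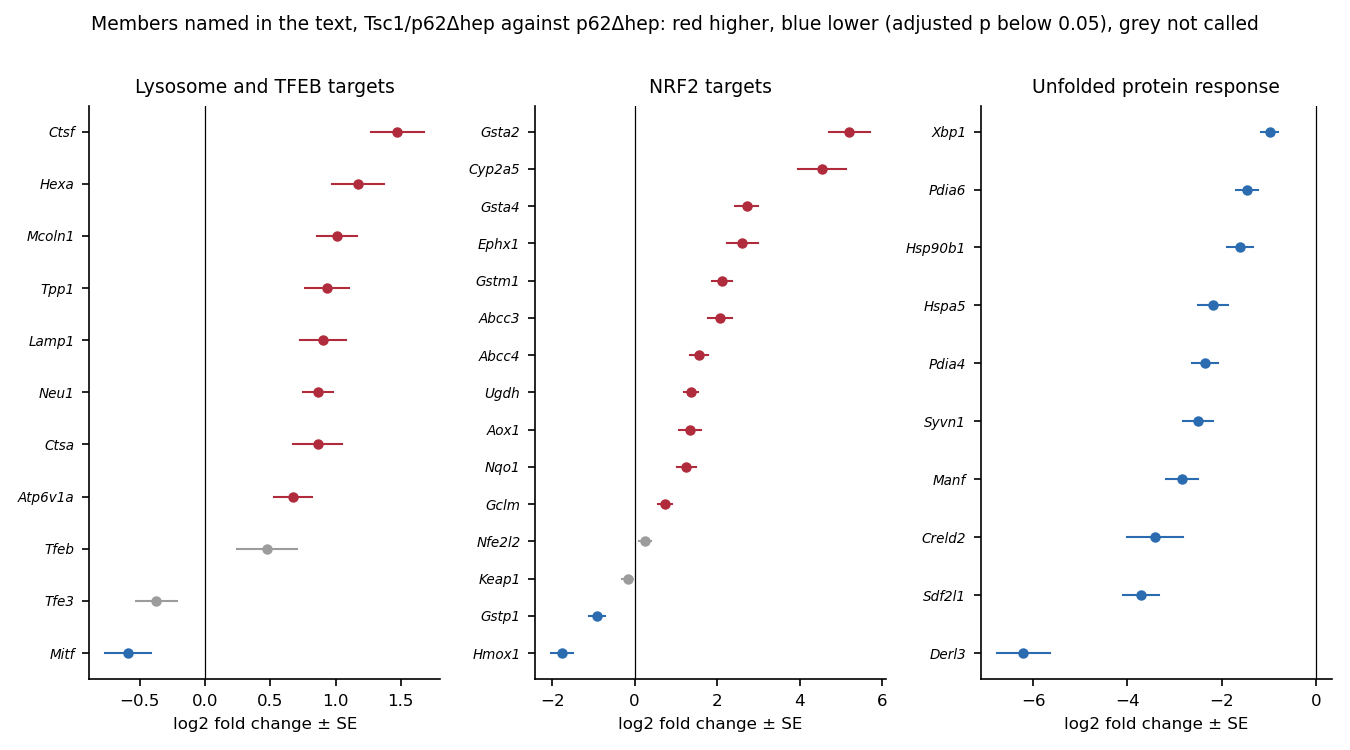
Log2 fold change with standard error of the members named in the text from the lysosome, NRF2 and unfolded protein response lists, Tsc1/p62Δhep against p62Δhep (3 libraries each). Gsta2 and Cyp2a5 lie farthest right and Derl3, at -6.21, farthest left.

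The list of unfolded protein response genes, which are induced when misfolded proteins accumulate in the endoplasmic reticulum (ER), was lower for nearly every member. Of 24 tested members, 20 were lower and 1, Herpud1, was higher, with a median of -1.48, against 20.1% of all genes called lower. Herpud1 lost its call when any single library except Tsc1/p62Δhep 2 was left out. Hspa5, the chaperone BiP, was at 2073, 4188 and 4142 CPM in p62Δhep and 724, 662 and 902 CPM in Tsc1/p62Δhep (log2 fold change -2.19 ± 0.32 SE, adjusted p = 0.0025). Sdf2l1, a partner of BiP, was at 87.8, 215 and 259 CPM and 12.8, 14.3 and 15.7 CPM (log2 fold change -3.72 ± 0.39 SE, adjusted p = 0.00099). Derl3, which helps export misfolded proteins from the ER, was at 20.3, 18.7 and 53.9 CPM and 0.4801, 0.384 and 0.382 CPM (log2 fold change -6.21 ± 0.56 SE, adjusted p = 0.00074). All 3 double-deleted libraries were below all of p62Δhep, where library 1 was lowest for Hspa5 and Sdf2l1 and libraries 1 and 2 were alike for Derl3. The secreted ER proteins Creld2 (-3.42) and Manf (-2.83), the ubiquitin ligase Syvn1 (-2.50), the disulfide isomerases Pdia4 (-2.35) and Pdia6 (-1.46), the chaperone Hsp90b1 (-1.61) and the transcription factor Xbp1 (-0.99) were lower too. The list's summed level was 11547 to 20021 CPM in p62Δhep and 6262 to 7140.4 CPM in Tsc1/p62Δhep. In p62F/F it was 8242 to 10998 CPM and in Tsc1Δhep 5938 to 7755 CPM. Both groups of the Tsc1 table were thus at the low end, and p62Δhep lay above p62F/F. Without p62Δhep 2 and 3, 11 of 24 members were still called lower, with a median of -0.97, and of the 21 calls made with all 6 libraries 12 split by table.

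The ER stress response element is shown for members that were lower because it is the known site of ATF6 and XBP1 in ER chaperone genes. It was searched on both strands as CCAAT and CCACG separated by 9 bases of any kind. It was found in 37 of 32851 promoters (0.113%), in 9 of 19 matched list members and in 8 of the 17 matched members called lower. Members were counted per gene, with a match in any annotated start, and all promoters per start. The list holds known targets of ATF6 and XBP1, so a share above that of all promoters does not bear on the lower levels. Capitals mark the match in the 200 bases shown, written on the gene's strand (RefSeq, GRCm38.p6).
Hspa5, chr2:34771890-34772089, plus strand: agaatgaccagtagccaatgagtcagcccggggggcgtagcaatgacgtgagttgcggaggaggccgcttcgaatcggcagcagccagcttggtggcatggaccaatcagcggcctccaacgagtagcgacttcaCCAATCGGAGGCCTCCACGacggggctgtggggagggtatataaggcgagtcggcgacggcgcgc
Hsp90b1, chr10:86705445-86705644, minus strand: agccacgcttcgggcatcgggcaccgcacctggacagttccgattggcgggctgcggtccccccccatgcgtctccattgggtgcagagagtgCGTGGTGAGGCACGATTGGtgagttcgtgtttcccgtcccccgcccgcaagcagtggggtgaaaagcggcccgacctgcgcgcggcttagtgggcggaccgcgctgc
Creld2, chr15:88819446-88819645, plus strand: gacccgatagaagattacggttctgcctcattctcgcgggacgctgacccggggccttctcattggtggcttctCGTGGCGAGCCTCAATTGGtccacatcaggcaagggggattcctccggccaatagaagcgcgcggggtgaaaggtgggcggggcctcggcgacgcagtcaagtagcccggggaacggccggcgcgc
Derl3, chr10:75893198-75893397, plus strand: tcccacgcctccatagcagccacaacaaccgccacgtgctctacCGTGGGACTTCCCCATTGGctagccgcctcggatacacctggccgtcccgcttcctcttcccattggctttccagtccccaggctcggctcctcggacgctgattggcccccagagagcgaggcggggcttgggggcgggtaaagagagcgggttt
Syvn1, chr19:6046376-6046575, plus strand: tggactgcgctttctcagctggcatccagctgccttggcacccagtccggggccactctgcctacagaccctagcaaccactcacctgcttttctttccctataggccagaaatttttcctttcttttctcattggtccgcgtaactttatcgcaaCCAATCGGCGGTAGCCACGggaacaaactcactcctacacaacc
In these stretches the match began 44 to 156 bases before the start in Hspa5, Hsp90b1, Creld2, Derl3 and Syvn1, all of them called lower. Occupancy of these sites was not measured.

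Genes of the acute phase response, the secretory programme that hepatocytes run under interleukin-6, were lower by large factors. Of 23 tested members, 19 were lower and 1 was higher, with a median of -3.35. Saa1, serum amyloid A, was at 1987, 23372 and 16723.5 CPM in p62Δhep and 40.9, 37.7 and 34.4 CPM in Tsc1/p62Δhep (log2 fold change -8.54 ± 0.97 SE, adjusted p = 0.0012). Lcn2, a siderophore-binding protein, was at 291, 2808 and 2471 CPM and 7.54, 9.87 and 10.1 CPM (log2 fold change -7.66 ± 0.89 SE, adjusted p = 0.0013). Haptoglobin, Hp, was at 7324, 24282 and 22139 CPM and 1575, 1564 and 1400.5 CPM (log2 fold change -3.57 ± 0.47 SE, adjusted p = 0.0018). In all of them p62Δhep 1 was several-fold below p62Δhep 2 and 3, and the double-deleted libraries were lower still. Saa1 and its neighbour Saa2 are near-identical, so reads may be divided between them. The summed acute phase level was 15002 to 113291 CPM in p62F/F, 23164 to 117971 CPM in p62Δhep, 11127 to 16269 CPM in Tsc1Δhep and 8374 to 10351 CPM in Tsc1/p62Δhep, so both groups of the Tsc1 table were at the low end, and 9 of the 20 called members split by table. Stat3, the transcription factor of the response, was at 229, 301 and 278 CPM and 112, 121 and 103 CPM (log2 fold change -1.27 ± 0.15 SE, adjusted p = 0.0014), and its feedback inhibitor Socs3 was lower by more (log2 fold change -4.24 ± 0.59 SE, adjusted p = 0.0021). The fibrinogen genes Fga (-2.25) and Fgb (-2.13), also induced in inflammation, were lower. After p62Δhep 2 and 3 were left out, 11 members were called lower and 1 higher, with a median of -1.46. The exception was Hamp2, a hepcidin paralogue, at 1.09, 0.374 and 0.0423 CPM and 84.02, 55.6 and 45.6 CPM (log2 fold change 6.97 ± 0.63 SE, adjusted p = 0.00074). It shares near-identical sequence with Hamp, whose groups overlapped (644, 157 and 1228 CPM against 535, 469 and 981 CPM), and the sources used here do not say how reads were divided between them.

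Macrophage markers were lower as a set. Of 12 tested Kupffer cell markers 11 were lower, and of 11 tested markers of recruited macrophages all 11 were lower, although Gpnmb overlapped between groups. Recruited macrophage calls were 9 of 11 without p62Δhep 1 or 3, 9 of 12 without Tsc1/p62Δhep 1 and 8 of 12 without Tsc1/p62Δhep 2. All 12 were called without p62Δhep 2 and 11 of 12 without Tsc1/p62Δhep 3. The 12 Kupffer markers summed to 524 to 908 CPM in p62Δhep and 127 to 156 CPM in Tsc1/p62Δhep, and the 12 recruited macrophage markers to 205 to 330.2 CPM and 34.7 to 41.2 CPM. Clec4f, a Kupffer cell lectin, was at 123, 208 and 181 CPM and 30.7, 22.04 and 25.3 CPM (log2 fold change -2.72 ± 0.23 SE, adjusted p = 0.00060). C1qa, a complement subunit made by tissue macrophages, was at 46.5, 57.7 and 76.2 CPM and 12.9, 14.7 and 16.2 CPM (log2 fold change -2.05 ± 0.20 SE, adjusted p = 0.00092). Lyz2, lysozyme of myeloid cells, was at 107, 103 and 153 CPM and 19.96, 21.4 and 19.7 CPM (log2 fold change -2.58 ± 0.18 SE, adjusted p = 0.00037). Each of these markers was lower in every double-deleted library than in any p62Δhep library. Of the 11 Kupffer calls 7 split by table, and the Kupffer markers summed to 519 to 589 CPM in p62F/F and 157 to 290.1 CPM in Tsc1Δhep. Ccr2, the chemokine receptor of incoming monocytes, had a log2 fold change of -3.08, and the macrophage lysosomal protein Cd68 one of -2.40. Without p62Δhep 2 and 3, 10 Kupffer and 9 recruited macrophage markers were still called lower. No Kupffer or recruited macrophage marker was at 0 in all 3 double-deleted libraries. The 9 neutrophil markers summed to 9.83 to 94.6 CPM and 0.9602 to 1.72 CPM, with Elane, neutrophil elastase, at 0 in Tsc1/p62Δhep, and T and NK cell markers to 7.36 to 12.5 CPM and 2.74 to 5.35 CPM.

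Inflammatory and interferon genes were lower in the same samples. Of 18 tested members of the NF-κB and cytokine list, 10 were lower and the other 8 were not called, and of 31 interferon-stimulated genes 19 were lower and 12 not called. The neutrophil chemokine Cxcl1 was at 26.3, 170.1 and 250.3 CPM in p62Δhep and 6.45, 8.97 and 5.73 CPM in Tsc1/p62Δhep (log2 fold change -4.40 ± 0.75 SE, adjusted p = 0.0043), with p62Δhep 1 again the lowest of its group. Isg15, a ubiquitin-like antiviral protein, was at 21.9, 19.3 and 22.3 CPM and 2.61, 4.42 and 3.95 CPM (log2 fold change -2.54 ± 0.21 SE, adjusted p = 0.00062), and the nucleic acid sensor Zbp1 was at 14.04, 18.8 and 19.6 CPM and 2.26, 2.95 and 2.04 CPM (log2 fold change -2.85 ± 0.22 SE, adjusted p = 0.00054). For Isg15 the 3 p62Δhep libraries were close together. In the fit that leaves out p62Δhep 2 and 3, 4 of the NF-κB list and 8 of the interferon list were called lower. Macrophages express many of these genes. The macrophage markers were lower in the same libraries, and their part in these counts was not tested.

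Matrix and endothelial genes were lower to a smaller degree. Of 28 tested fibrosis and matrix genes, 16 were lower and 1 higher, with 9 lower without Tsc1/p62Δhep 2, 10 without Tsc1/p62Δhep 1 and 8 when all 12 libraries shared 1 model. Against p62Δhep 1 alone, 1 was called higher and 5 lower, with a median of -0.88. Col4a1, a basement membrane collagen, was at 34.6, 59.6 and 61.98 CPM in p62Δhep and 15.6, 14.2 and 12.2 CPM in Tsc1/p62Δhep (log2 fold change -1.90 ± 0.23 SE, adjusted p = 0.0015). Tgfb1, the main fibrogenic cytokine, was at 6.91, 9.42 and 9.86 CPM and 3.57, 3.59 and 2.93 CPM (log2 fold change -1.38 ± 0.22 SE, adjusted p = 0.0034), and the contractile protein Acta2, a marker of activated stellate cells, was at 3.17, 3.99 and 2.79 CPM and 0.892, 1.35 and 0.764 CPM (log2 fold change -1.72 ± 0.31 SE, adjusted p = 0.0053). Each of these 3 genes was lower in all double-deleted libraries. Of 11 stellate cell markers 3 were lower and 8 were not called, with a median of -0.57. All 12 list members summed to 194 to 289 CPM and 205 to 295 CPM, which overlapped. The list's median level, by contrast, was lower in all 3 double-deleted libraries than in any p62Δhep library. In the model of 12 libraries 1 stellate cell marker was called lower. Of 21 endothelial markers 11 were lower and 1 higher, with 6 lower without p62Δhep 2 or Tsc1/p62Δhep 2, 7 without p62Δhep 1 and 3 in the model of 12 libraries. Against p62Δhep 1 alone, 1 was called higher and 2 lower. Their sum was 395 to 482 CPM and 256 to 349.7 CPM, and the scavenger receptor Stab1 was lower (log2 fold change -1.17 ± 0.16 SE, adjusted p = 0.0019).

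**Figure D4:**
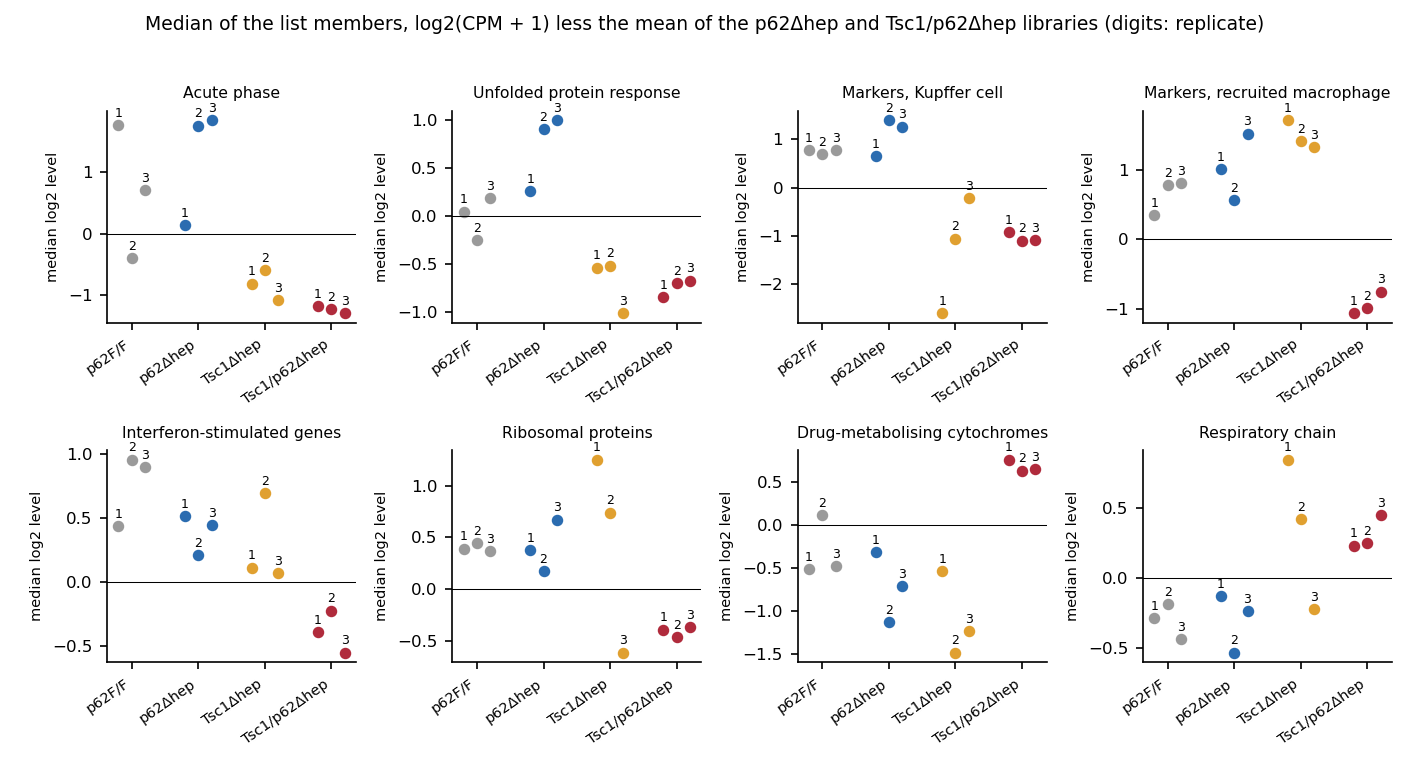
Median log2(CPM + 1) of the members of 8 lists in each of the 12 libraries, less its mean over the 6 of p62Δhep and Tsc1/p62Δhep; the digit is the replicate number. Acute phase genes set p62Δhep 1 apart from p62Δhep 2 and 3, while the macrophage lists separate p62Δhep from Tsc1/p62Δhep.

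Genes of drug and bile acid metabolism were higher in the same libraries. Of 24 tested drug-metabolising cytochromes and their partners, 15 were higher and 1 lower, with a median of 1.45. Cyp2c37 was at 227, 158 and 161 CPM in p62Δhep and 955, 991 and 1319 CPM in Tsc1/p62Δhep (log2 fold change 2.57 ± 0.24 SE, adjusted p = 0.00076), and Cyp2f2, a periportal cytochrome, was at 497, 296 and 381 CPM and 1745, 1669 and 2225 CPM (log2 fold change 2.26 ± 0.26 SE, adjusted p = 0.0012). Cyp3a11, the main target of the xenobiotic receptor PXR, was at 635, 67.02 and 134 CPM and 4617, 6065 and 8179.9 CPM (log2 fold change 4.48 ± 0.85 SE, adjusted p = 0.0062). Cyp3a11 spread widely within p62Δhep, with library 1 highest, yet the groups did not overlap. Cyp2c and Cyp3a genes have close relatives, and the sources used here do not say how shared reads were counted. The shared electron donor Por was higher (1.96). Of 18 bile acid genes, 11 were higher and the other 7 were not called, with a median of 0.98. Cyp7a1, the rate-limiting enzyme of bile acid synthesis, was at 59.3, 15.3 and 5.12 CPM and 544, 329 and 270.4 CPM (log2 fold change 3.83 ± 0.83 SE, adjusted p = 0.0099), and Cyp8b1, which directs synthesis to cholic acid, was at 123, 42.6 and 22.7 CPM and 775, 926 and 554 CPM (log2 fold change 3.57 ± 0.61 SE, adjusted p = 0.0043). For both, p62Δhep 1 was the highest of its group and still below the double-deleted libraries. The uptake carrier Slc10a1 (1.46), the conjugating ligase Slc27a5 (1.35) and the basolateral carrier Slco1a4 (3.57) were higher. Without p62Δhep 2 and 3, 5 cytochromes and 5 bile acid genes were called higher, with medians of 1.01 and 0.58.

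Zonation and bile duct markers were also read. Of 12 periportal hepatocyte markers, 7 were higher and 5 were not called, with 4 higher without p62Δhep 1 or 3 and 1 against p62Δhep 1 alone, and they summed to 5295 to 5534 CPM in p62Δhep and 9491 to 12941 CPM in Tsc1/p62Δhep. Of 16 pericentral markers, 4 were higher and 1 lower, near the 17.6% of all genes called higher, with 1 higher in the model of 12 libraries. Against p62Δhep 1 alone, none was called, with 4 higher and 3 lower at an unadjusted p below 0.05. The pericentral markers summed to 6757 to 10439 CPM and 15029 to 15492 CPM, ranges that lay apart, but the list's median level overlapped between the groups. The pericentral glutamine synthetase Glul was at 1868, 1753 and 1883 CPM and 1570.0, 1651 and 1572 CPM and was not called (adjusted p = 0.40), whereas the periportal histidine ammonia-lyase Hal was at 116, 148 and 145 CPM and 386, 301 and 211 CPM (log2 fold change 1.13 ± 0.24 SE, adjusted p = 0.0088). Of 11 cholangiocyte and progenitor markers, 3 were higher and 1 lower, with 1 higher without p62Δhep 1 and without Tsc1/p62Δhep 2 or 3. All 14 list members summed to 90.7 to 506 CPM and 111 to 176 CPM, overlapping ranges. The keratin Krt23 was higher (0.208, 0.312 and 0.423 CPM against 7.06, 4.998 and 24.8 CPM; log2 fold change 5.22 ± 0.74 SE, adjusted p = 0.0023). The bile acid receptor Nr1h4 was among 2 of 18 hepatocyte transcription factors called higher (log2 fold change 0.94 ± 0.19 SE, adjusted p = 0.0082), and 16 were not called. The higher count was 1 without p62Δhep 3 or any one Tsc1/p62Δhep library.

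Genes of glucose output and storage were higher. Of 19 tested gluconeogenesis and glycogen genes, 11 were higher and 1 lower, with a median of 0.82 and with 6 higher without Tsc1/p62Δhep 1. Against p62Δhep 1 alone, 4 were called higher, with a median of 0.78. Pck1, the first committed enzyme of gluconeogenesis, was at 1444, 1247 and 1447 CPM in p62Δhep and 4651, 3032 and 5559 CPM in Tsc1/p62Δhep (log2 fold change 1.67 ± 0.27 SE, adjusted p = 0.0038). Gys2, liver glycogen synthase, was at 125, 63.2 and 73.3 CPM and 396, 403 and 386 CPM (log2 fold change 2.17 ± 0.27 SE, adjusted p = 0.0015), and Ppp1r3g, which targets a phosphatase to glycogen, was at 0.208, 0 and 0.169 CPM and 8.299, 8.97 and 3.31 CPM. The glucose-6-phosphate carrier Slc37a4 (1.28), the UTP-glucose-1-phosphate enzyme Ugp2 (1.79) and the branching enzyme Gbe1 (0.97) were higher too. Each of these genes was higher in every double-deleted library. Glycolysis genes went both ways, 7 of 28 higher and 9 lower, against 17.6% and 20.1% of all genes. The lower count was 5 without either Tsc1/p62Δhep 1 or 2. In the edgeR fit with p62Δhep 1 alone, none was called, with 6 higher and 8 lower at an unadjusted p below 0.05. The liver pyruvate kinase Pklr (1.94) and the glucose carrier Slc2a2 (1.73) were higher. The hexokinases Hk2 (-1.98) and Hk3 (-2.87), of which hepatocytes make little, were lower, and Hk3 is also a leukocyte gene.

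Insulin signalling genes gave calls in both directions. Foxo1, the transcription factor that insulin restrains through AKT, was at 41.6, 41.3 and 39.8 CPM in p62Δhep and 91.3, 81.8 and 124 CPM in Tsc1/p62Δhep (log2 fold change 1.27 ± 0.17 SE, adjusted p = 0.0018). Akt2, the main hepatic AKT, was at 106, 118 and 134 CPM and 75.5, 65.2 and 65.1 CPM (log2 fold change -0.80 ± 0.14 SE, adjusted p = 0.0045), and the growth hormone receptor Ghr was higher (log2 fold change 1.27 ± 0.26 SE, adjusted p = 0.0080). Foxo1 and Akt2 thus moved in opposite directions without overlap. Of 23 tested insulin and IGF genes, 7 were higher and 2 lower, against 17.6% and 20.1% of all genes. The higher count was 3 without p62Δhep 2, 4 without p62Δhep 3 and 4 without Tsc1/p62Δhep 1. With p62Δhep 1 alone, 1 was called lower, and no insulin gene was called higher by edgeR, against 6 higher at an unadjusted p below 0.05. In the urea cycle and glutamine list, 6 of 13 were higher and 7 were not called, and with p62Δhep 1 alone, 2 were called higher. Asl, argininosuccinate lyase, was at 209.7, 189 and 166 CPM and 1069, 722 and 642 CPM (log2 fold change 2.10 ± 0.24 SE, adjusted p = 0.0012), and the mitochondrial enzyme Otc was at 415, 267 and 221 CPM and 1039.7, 997 and 1101 CPM (log2 fold change 1.79 ± 0.26 SE, adjusted p = 0.0025). Both were higher in all double-deleted libraries.

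ATF4 targets, which mTORC1 and amino acid stress both induce, gave calls in both directions at shares near those of all genes. Of 29 tested, 6 were higher and 6 lower, against 17.6% and 20.1% of all genes, with a median of 0.00. The list's median was 0.16 with p62Δhep 1 alone. The stress transcription factors Ddit3 (11.7, 13.98 and 13.5 CPM in p62Δhep against 4.32, 3.396 and 6.17 CPM in Tsc1/p62Δhep; log2 fold change -1.50 ± 0.24 SE, adjusted p = 0.0033), Atf3 (-1.97) and Atf5 (-1.40) and the tRNA synthetases Wars (-1.22) and Tars (-0.96) were lower. The stress hormone Gdf15 was at 6.13, 7.24 and 13.96 CPM and 30.4, 28.4 and 28.9 CPM (log2 fold change 1.67 ± 0.29 SE, adjusted p = 0.0046), and the alanine transaminase Gpt2 was higher (1.52). When p62Δhep 1 stood alone, log2 fold changes were -1.36 for Ddit3, -1.56 for Atf3, -1.08 for Atf5, -0.57 for Wars and -0.62 for Tars. Those of Gdf15 and Gpt2 were 2.23 and 1.21. In one-carbon metabolism, the mitochondrial enzyme Mthfd2, an ATF4 target, was at 3.17, 5.18 and 8.59 CPM and 0.686, 1.54 and 1.02 CPM (log2 fold change -2.38 ± 0.45 SE, adjusted p = 0.0061). The cytosolic enzyme Mthfd1 was higher (log2 fold change 0.84). In the serine and one-carbon list, 3 of 16 were higher and 4 lower, near the 17.6% and 20.1% of all genes. With p62Δhep 1 alone the list's median moved from 0.26 to 0.23. The log2 fold changes of Mthfd2 and Mthfd1 were then -1.56 and 0.7.

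Most lipid synthesis genes were not called. Of 25 tested cholesterol synthesis genes 1 passed, the SREBP escort Scap (1.08), with 2 without p62Δhep 2 and 3 without Tsc1/p62Δhep 3. Of 21 fatty acid and triglyceride synthesis genes, 2 were higher and 3 lower, with 5 higher without p62Δhep 1 and 1 lower without Tsc1/p62Δhep 2. In the edgeR fit with p62Δhep 1 alone, none was called, with 3 higher and 3 lower at an unadjusted p below 0.05, among fatty acid and triglyceride genes. Lpin1, a phosphatidate phosphatase and transcription coactivator, was at 208, 203 and 46.1 CPM in p62Δhep and 876, 427 and 940.2 CPM in Tsc1/p62Δhep (log2 fold change 2.29 ± 0.57 SE, adjusted p = 0.016), and the SREBP-retaining protein Insig2 was lower (log2 fold change -1.18 ± 0.19 SE, adjusted p = 0.0035). Of 32 PPARα and oxidation genes, 11 were higher and 21 were not called, with a median of 0.80. The coactivator Ppargc1a was at 9.62, 8.86 and 6.73 CPM and 33.2, 19.9 and 26.5 CPM (log2 fold change 1.66 ± 0.23 SE, adjusted p = 0.0020), and the peroxisomal enzyme Ehhadh was at 159, 82.3 and 97.3 CPM and 364, 346 and 1114 CPM (log2 fold change 2.42 ± 0.50 SE, adjusted p = 0.0087). The list's count was sensitive to single libraries, falling to 4 without p62Δhep 2, 3 without p62Δhep 3, 7, 6 and 5 without Tsc1/p62Δhep 1, 2 and 3, and 3 in the model of 12 libraries. In the edgeR fit with p62Δhep 1 alone, none was called, with 3 higher at an unadjusted p below 0.05, and the median was 0.45.

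Nuclear genes of the respiratory chain and of the ribosome moved in opposite directions. Of 47 tested respiratory chain genes, 30 were higher and 1 lower, with a median of 0.61, summing to 6010.3 to 8009 CPM in p62Δhep and 10694 to 12180.0 CPM in Tsc1/p62Δhep. Atp5b, the catalytic ATP synthase subunit, was at 978, 751 and 883 CPM and 1574, 1452 and 1691 CPM (log2 fold change 0.85 ± 0.19 SE, adjusted p = 0.012), and Sdhb, a complex II subunit, was at 132, 93.4 and 109 CPM and 214, 223 and 226 CPM (log2 fold change 0.98 ± 0.16 SE, adjusted p = 0.0040). The gene that was lower was Cycs, cytochrome c (log2 fold change -1.19 ± 0.18 SE, adjusted p = 0.0031), which has processed copies elsewhere in the genome. Of the called respiratory chain genes, 18 split by table and 13 did not. The list summed to 6437 to 7662 CPM in p62F/F and 8525 to 15541 CPM in Tsc1Δhep. Both groups of the Tsc1 table thus stood above both groups of the p62 table. The higher count was 18 with library totals, 19 without p62Δhep 2 and 17 in the model of 12 libraries, and 1 without p62Δhep 2 and 3. Of 74 cytosolic ribosomal protein genes, 55 were lower and 1 was higher, with a median of -0.86. All 77 list members summed to 11012.5 to 14886 CPM in p62Δhep and 7024 to 7732 CPM in Tsc1/p62Δhep. Rps2 was at 592, 534 and 653 CPM and 253, 228 and 223 CPM (log2 fold change -1.34 ± 0.16 SE, adjusted p = 0.0014), and Rpl10 was at 360.2, 349 and 443 CPM and 137, 138 and 155 CPM (log2 fold change -1.43 ± 0.16 SE, adjusted p = 0.0012). In p62F/F, Rps2 was at 600.0, 632 and 566 CPM, and in Tsc1Δhep at 361, 263 and 165 CPM, so the Rps2 levels were low in both groups of the Tsc1 table. The list's median level, by contrast, lay in Tsc1Δhep 1 and 2 above all 3 p62Δhep libraries and in Tsc1Δhep 3 below them. Ribosomal protein genes have many processed copies, so their counts depend on how the authors treated shared reads, a step the sources used here do not describe. The lower count was 25 in the model of 12 libraries and 30 against p62Δhep 1 alone.

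Clock genes separated the groups. Of 20 tested members, 9 were higher and 3 lower. Arntl, the core activator BMAL1, was at 12.8, 28.3 and 26.1 CPM in p62Δhep and 1.44, 1.28 and 2.48 CPM in Tsc1/p62Δhep (log2 fold change -3.69 ± 0.38 SE, adjusted p = 0.00099). Its partner Npas2 was at 0.936, 8.86 and 7.74 CPM and 0, 0.0641 and 0.0636 CPM. Usp2, a clock-controlled deubiquitinase, was at 9.62, 2.56 and 4.104 CPM and 147, 89.9 and 146 CPM (log2 fold change 4.54 ± 0.48 SE, adjusted p = 0.0010), and the output factors Tef (2.40) and Hlf (1.34) were higher. Within p62Δhep, library 1 stood nearest to the double-deleted group in Arntl, Npas2, Usp2 and Tef. When p62Δhep 2 and 3 were left out, 5 members were called higher and 2 lower. The sources used here do not state the time of day at which tissue was taken, and its part in these values was not tested.

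Growth and damage genes were mixed. Of 18 tested p53 targets, 7 were higher and 3 lower, against 17.6% and 20.1% of all genes. Among these calls 7 split by table and 3 did not. With p62Δhep 1 alone the list's median moved from 0.26 to 0.6. Ccng1, a p53-induced cyclin, was at 63.6, 60.3 and 58.05 CPM in p62Δhep and 127, 166 and 165 CPM in Tsc1/p62Δhep (log2 fold change 1.33 ± 0.14 SE, adjusted p = 0.0011), and the death receptor Eda2r was at 4.21, 2.75 and 2.79 CPM and 16.5, 30.2 and 28.4 CPM (log2 fold change 2.94 ± 0.29 SE, adjusted p = 0.00094). Pmaip1, which encodes the pro-death protein NOXA, was lower (log2 fold change -2.61 ± 0.43 SE, adjusted p = 0.0039). Both Ccng1 and Eda2r were higher in all double-deleted libraries. Proliferation genes were low in both groups: Mki67, the Ki-67 antigen, was at 4.52, 4.49 and 6.18 CPM and 1.23, 0.897 and 0.827 CPM (log2 fold change -2.36 ± 0.28 SE, adjusted p = 0.0014), and the topoisomerase Top2a at 4.78, 4.24 and 5.796 CPM and 0.892, 0.705 and 1.78 CPM (log2 fold change -2.13 ± 0.36 SE, adjusted p = 0.0042). These single genes do not stand for the list. Of 31 cell cycle genes, 6 were lower and 3 higher, the former near the 20.1% of all genes, with a median of -0.11. The list summed to 131 to 162 CPM and 106 to 290.0 CPM, so the groups overlapped, with Tsc1/p62Δhep 3 the highest of the 6 libraries. There were 2 lower without p62Δhep 2, 2 without p62Δhep 3 and 3 without Tsc1/p62Δhep 2, and 1 higher without p62Δhep 2 or 3. Against p62Δhep 1 alone, 1 was called lower. Among 14 oncofetal and tumour markers, 4 were lower and 10 were not called, with 7 lower without p62Δhep 2, 4 against p62Δhep 1 alone and 2 without Tsc1/p62Δhep 1. The stem and tumour marker Cd44, also made by leukocytes, was at 15.3, 32.5 and 25.3 CPM and 4.12, 4.16 and 3.63 CPM (log2 fold change -2.62 ± 0.28 SE, adjusted p = 0.0011).

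The largest rises included genes with little RNA in p62Δhep. Cyp46a1, a cholesterol hydroxylase, was at 0.416, 0.125 and 0.635 CPM in p62Δhep and 21.2, 32.4 and 38.2 CPM in Tsc1/p62Δhep (log2 fold change 6.17 ± 0.42 SE, adjusted p = 0.00035). Upp2, a liver uridine phosphorylase, was at 88.1, 4.56 and 5.16 CPM and 2059, 1453 and 1109 CPM (log2 fold change 5.55 ± 1.23 SE, adjusted p = 0.011). Clec2h, a lectin-like surface protein, was at 1.92, 0.0624 and 0.127 CPM and 73.3, 112 and 14.7 CPM (log2 fold change 6.55 ± 1.08 SE, adjusted p = 0.0039). Cyp46a1 and Clec2h were under 1 CPM in at least 2 p62Δhep libraries, and Upp2 and Clec2h were highest in p62Δhep 1 of that group. Cyp2b13, a female-biased cytochrome, was at 0.572, 0.2496 and 0.846 CPM and 4.18, 1.35 and 153 CPM, with 1 double-deleted library far above the rest. Among the largest falls was Saa2, which was at 1038, 26777 and 15968 CPM and 11.5, 13.01 and 16.9 CPM (log2 fold change -10.04 ± 1.27 SE, adjusted p = 0.0016).

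The effect of Tsc1 loss was then compared between p62-deleted liver (Tsc1/p62Δhep against p62Δhep) and p62-intact liver (Tsc1Δhep against p62F/F) in 1 model of all 12 libraries. In this difference of differences a factor that scales a gene in a whole table cancels, whereas an effect of Cre does not, because p62F/F had none. Of 13231 genes tested with edgeR, 2127 (16.1%) passed, 894 (6.76%) with a higher and 1233 (9.32%) with a lower Tsc1 effect in p62-deleted liver. With library totals in place of TMM the split was 419 and 2391, and the median over all genes moved from -0.07 to -0.39. There were 465 higher and 704 lower without p62Δhep 3 and 2401 and 2551 without Tsc1Δhep 3.

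Several hepatocyte metabolic genes stood low in Tsc1Δhep and not in Tsc1/p62Δhep. Cyp1a2, a pericentral cytochrome, was at 531, 439 and 384 CPM in p62F/F and 11.3, 27.9 and 27.2 CPM in Tsc1Δhep, but at 439, 296 and 345 CPM in p62Δhep and 942, 829 and 718 CPM in Tsc1/p62Δhep (log2 difference 5.55 ± 0.46 SE, adjusted p = 0.00013). Cyp2c67 was at 167, 219 and 157 CPM and 7.01, 6.12 and 6.49 CPM with p62, and at 202, 114 and 171 CPM and 122, 161 and 88.9 CPM without it (log2 difference 4.39 ± 0.38 SE, adjusted p = 0.00013). Slc10a1, the bile acid uptake carrier, was at 359, 409.5 and 269 CPM and 71.1, 30.4 and 44.4 CPM with p62, and at 412, 243 and 279 CPM and 893, 998 and 691 CPM without it (log2 difference 4.28 ± 0.47 SE, adjusted p = 0.00043). In each of these, all 3 Tsc1Δhep libraries lay below the other 9, and for Cyp1a2 and Slc10a1 the 3 Tsc1/p62Δhep libraries were the highest of all 12. The pericentral ornithine aminotransferase Oat (4.82), Cyp2c50 (7.09), Foxo1 (1.81) and the growth factor Igf1 (2.73) also had positive log2 differences. By list, the difference was called higher for 11 of 24 drug-metabolising cytochromes and for 9 of 19 bile acid genes, with 2 lower. It was called higher for 7 of 13 urea cycle and glutamine genes, with 1 lower, and for 8 of 14 male-biased liver genes. Of all genes, 6.76% were called higher and 9.32% lower. Elovl3, a male-biased fatty acid elongase, was at 210.0, 120.5 and 214 CPM, 2.02, 0.373 and 0.959 CPM, 379.5, 204 and 286 CPM and 40.1, 54.2 and 52.9 CPM in the order p62F/F, Tsc1Δhep, p62Δhep and Tsc1/p62Δhep (log2 difference 4.80 ± 0.65 SE, adjusted p = 0.0012). Its levels stood lower without Tsc1 in both backgrounds.

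**Figure D5:**
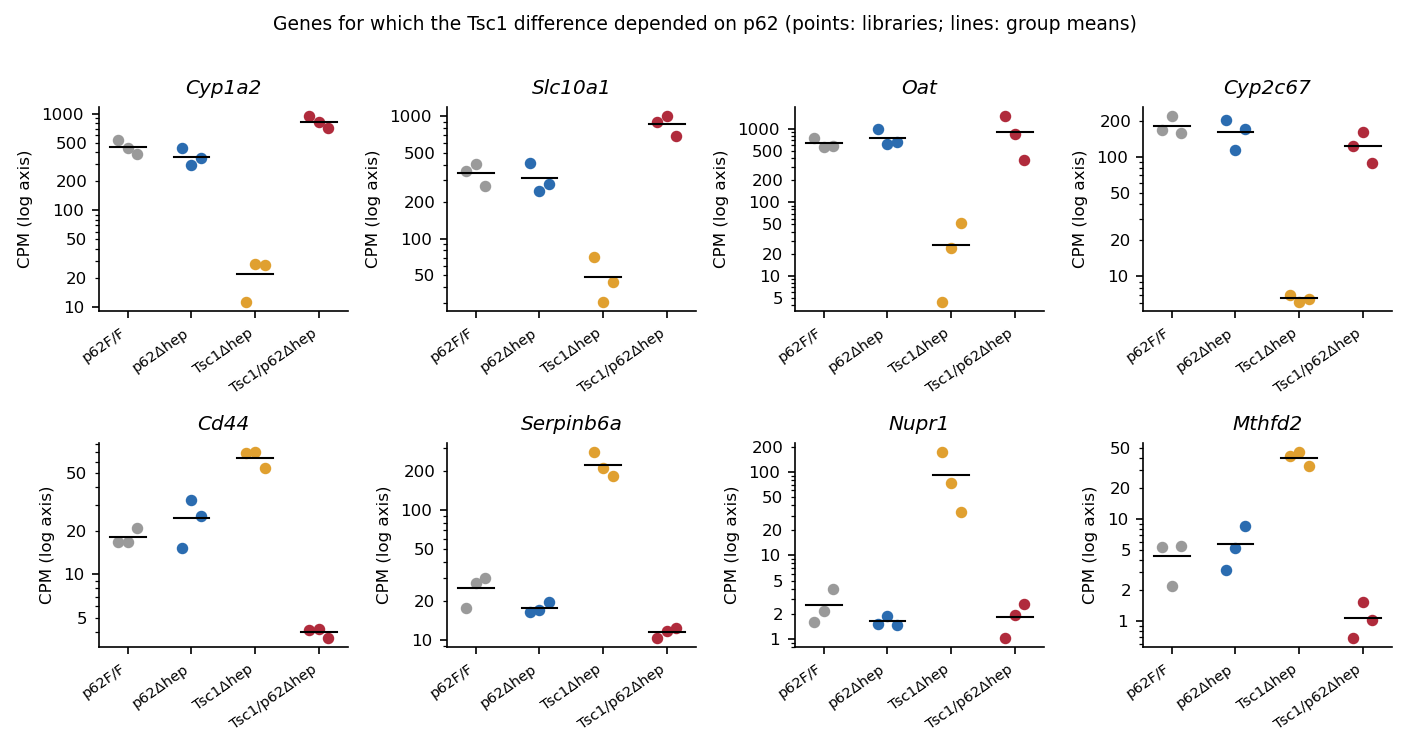
CPM on a log axis of Cyp1a2, Slc10a1, Oat, Cyp2c67, Cd44, Serpinb6a, Nupr1 and Mthfd2 in each of the 12 libraries, by group; points are libraries and lines are group means. Tsc1Δhep stands apart from the other groups in all 8 genes, low in the first 4 and high in the last 4.

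Several stress and matrix genes went the other way. Cd44 was at 16.8, 16.7 and 20.8 CPM in p62F/F and 68.9, 69.8 and 53.9 CPM in Tsc1Δhep, while in p62-deleted liver it was lower after Tsc1 loss (log2 difference -4.45 ± 0.36 SE, adjusted p = 0.00013). Serpinb6a, a protease inhibitor, was at 17.7, 27.5 and 30.3 CPM and 279.8, 212 and 183 CPM with p62, and 16.4, 17.2 and 19.8 CPM and 10.4, 11.9 and 12.5 CPM without it (log2 difference -3.79 ± 0.32 SE, adjusted p = 0.00013). Ncoa7, an oxidation resistance gene, was at 2.09, 2.64 and 3.58 CPM, 22.9, 28.7 and 23.3 CPM, 2.55, 2.75 and 2.37 CPM and 1.17, 0.769 and 1.34 CPM in the same order of groups (log2 difference -4.40 ± 0.37 SE, adjusted p = 0.00013). In these genes all 3 Tsc1Δhep libraries stood above the other 9. Abr, a regulator of Rac GTPases, had a log2 difference of -3.55. Mthfd2 was at 5.302, 2.19 and 5.51 CPM and 41.9, 45.1 and 33.2 CPM with p62 (log2 difference -5.60 ± 0.62 SE, adjusted p = 0.00043), and Aldh18a1, which makes proline precursors, at 3.27, 4.83 and 4.57 CPM and 21.6, 22.6 and 27.7 CPM, against 1.25, 4.93 and 3.85 CPM and 0.686, 0.449 and 0.636 CPM without p62 (log2 difference -5.00 ± 0.60 SE, adjusted p = 0.00066). The stress regulator Nupr1 (-4.99), the stress hormone Fgf21 (-5.00), Pmaip1 (-5.90), Hmox1 (-2.06), Col4a1 (-3.56), Top2a (-3.02) and the macrophage genes Lyz2 (-3.78) and Cd68 (-3.29) had negative differences. By list, the difference was called lower for 12 of 29 ATF4 targets and for 11 of 12 recruited macrophage markers. Of all genes, 9.32% were called lower and 6.76% higher. The ATF4 count ranged from 8 to 15 when single libraries were left out. Serine and one-carbon genes went both ways, with 7 of 18 lower and 5 higher. It was called lower for 13 of 37 cell cycle genes and 12 of 32 matrix genes, and these counts ranged from 6 to 19 and from 6 to 16 when single libraries were left out. The 12 recruited macrophage markers summed to 163 to 225 CPM in p62F/F and 227 to 888 CPM in Tsc1Δhep. In p62Δhep they summed to 205 to 330.2 CPM and in Tsc1/p62Δhep to 34.7 to 41.2 CPM. The part of macrophages in the matrix and stress values was not tested. Rragd had no called difference (adjusted p = 0.65), which does not show that the effects were equal.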

How the data were processed

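RNA of 12 mouse liver samples was deposited by the authors as 2 tables of gene counts with 6 libraries each, in whole numbers with unequal totals and no normalization. The sources used here do not state the aligner, counter, annotation, use of strand or instrument of each library. Per the submitters' processing notes the build was hg19, although the symbols are mouse symbols, and no coordinate of that build was used. The 2 tables list 23420 genes in the same order and were joined by row. Of the names 27 had been turned into dates. These genes made up 0.143% to 0.310% of a library, were tested with the rest and are not named.

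Groups were read from sample titles. The members of the comparison and the gene lists were chosen with earlier results of these data known. Genes were kept with filterByExpr (10 counts, 15 in total) and tested with edgeR 4.0.16 (R 4.3.3) by the quasi-likelihood method with TMM scaling and Benjamini-Hochberg adjustment at 0.05, over the 6 libraries for the comparison and over all 12 for the difference of the Tsc1 effect. CPM used TMM-scaled sizes of all 12 libraries. DESeq2 1.42.0 and limma 3.58.1 on log2(CPM + 1) were alternatives, and further ones changed the filter, scaling, block, libraries, GC content and gene length (GENCODE M21 models). Scripts were tested on simulated data with known changes. In the comparison 58% of log2 changes of 1 and 99% of log2 changes of 2 were recovered. In the difference of the Tsc1 effect these shares were 4% and 37%, so a gene that was not called may still differ. Chi-square statistics of replicate pairs, over genes with at least 20 counts, were 36.2 to 325 per gene, so no pair of replicates agreed within sampling noise. Promoters came from a RefSeq table of GRCm38.p6.

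Genes were named by a rule: Sqstm1, Tsc1, Tsc2, Alb and Myc; the 10 largest rises and 10 largest falls with at least 50 counts on average and no overlap; the 3 smallest p of each list; and the 6 smallest p of the difference. Not all of these are named, and genes outside the rule were chosen after their values were seen. The largest rises and falls that had 3 or fewer counts in a group, or close copies elsewhere, are given by level or left out.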

Additional observations from a re-analysis of the deposited data

Results flagged for a closer look

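The effect of Tsc1 loss differed between p62-deleted and p62-intact liver for 894 genes with a higher and 1233 genes with a lower effect in p62-deleted liver, by the interaction test of edgeR with Benjamini-Hochberg adjustment. Among the named hepatocyte metabolic and hormone genes the log2 difference was 5.55 for Cyp1a2, 4.39 for Cyp2c67, 7.09 for Cyp2c50, 4.28 for Slc10a1, 4.82 for Oat, 4.80 for Elovl3, 2.73 for Igf1 and 1.81 for Foxo1. Among the named stress, matrix, proliferation and myeloid genes it was -4.45 for Cd44, -3.79 for Serpinb6a, -4.40 for Ncoa7, -3.55 for Abr, -5.60 for Mthfd2, -5.00 for Aldh18a1, -4.99 for Nupr1, -5.00 for Fgf21, -5.90 for Pmaip1, -2.06 for Hmox1, -3.56 for Col4a1, -3.02 for Top2a, -3.78 for Lyz2 and -3.29 for Cd68. All 22 genes kept their call with DESeq2, limma, each other scaling and filter, the replicate block and each library left out in turn. Some were chosen after their values were seen, so they do not stand for all calls. Of the 2127 genes called, 1146 kept their call without p62Δhep 3 and 1156 without Tsc1/p62Δhep 1. The difference holds Tsc1Δhep against p62F/F, which differ in Cre as well as in Tsc1.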

How the results depend on the processing

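The direct comparison gave 2392 higher and 2490 lower calls with DESeq2, 2176 and 2453 with limma, 1500 and 2724 with library totals and 1414 and 1738 in a model of all 12 libraries, against 2153 and 2460. Leaving out one library gave 1378 to 2180 higher and 1655 to 2319 lower calls, and leaving out p62Δhep 2 and 3 gave 255 and 512, an alternative added after the data were seen in which fewer libraries were compared. Without the 12 genes with a 10-fold gap between tables there were 2146 and 2450 calls. The difference of the Tsc1 effect gave 1336 and 1678 calls with DESeq2 and 419 and 2391 with library totals, which moved the median of all genes to -0.39, against 894 and 1233. Leaving out one library gave 465 to 2401 higher and 676 to 2551 lower calls, with 2401 and 2551 without Tsc1Δhep 3 and the fewest higher without p62Δhep 3. Replicate numbers are only shared numbers: deviations of same-numbered libraries correlated at 0.07, 0.05 and 0.29. With a replicate block the comparison gave 2157 and 2397 calls and the difference 656 and 924. The block raised the calls from 1 higher to 6 higher and 2 lower of 25 cholesterol synthesis genes and from 2 to 7 higher of 21 fatty acid and triglyceride synthesis genes. Sqstm1, not called, changed sign to a log2 fold change of 0.018 with GC content and length trends removed and to 0.03, 0.11 and 0.08 without p62Δhep 1, p62Δhep 3 and Tsc1/p62Δhep 1, over a range of -0.22 to 0.11 when single libraries were left out. For the changes with scaling and with single libraries, the cause was not tested.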

Other observations

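Genes induced early by growth and stress signals, the immediate early genes, were partly lower. Of 16 tested, 7 were lower and 9 were not called, with 4 lower without Tsc1/p62Δhep 1 and 1 against p62Δhep 1 alone. Ier3 was at 1.61, 5.43 and 6.01 CPM in p62Δhep and 0.343, 0.384 and 0.636 CPM in Tsc1/p62Δhep (log2 fold change -3.24 ± 0.57 SE, adjusted p = 0.0047), and Ier5 at 10.8, 24.2 and 32.7 CPM and 3.02, 3.84 and 4.14 CPM (log2 fold change -2.62 ± 0.39 SE, adjusted p = 0.0027). Both were lower in every double-deleted library. Of 34 proteasome subunits, 3 were higher and 4 lower, fewer than the 17.6% and 20.1% of all genes. There was 1 higher when any single library except p62Δhep 3 was left out. The lower ones included the core particle subunit Psma5, at 73.1, 66.8 and 79.6 CPM and 52.4, 40.05 and 34.9 CPM (log2 fold change -0.79 ± 0.17 SE, adjusted p = 0.011).

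The male-biased fatty acid elongase Elovl3 was lower (log2 fold change -2.57 ± 0.26 SE, adjusted p = 0.00094), while of 14 male-biased liver genes 1 was higher and 2 were lower. Without p62Δhep 1 the male-biased list had 4 higher and 1 lower, and its median moved from 0.17 to 0.84. The Y-linked gene Ddx3y was at 79.3 to 134 CPM and the X-inactivation RNA Xist at no more than 0.187 CPM in the 6 mouse libraries. Msln, a mesothelial surface protein, was at 0.104, 0.936 and 0.0846 CPM and 3.02, 3.72 and 3.56 CPM (log2 fold change 3.30 ± 0.70 SE, adjusted p = 0.0095), a low level in both groups. The adaptor gene Sqstm1 stood at 775 to 1152 CPM in Tsc1Δhep, above the 327 to 358 CPM of p62F/F, and that difference between tables was not tested.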
